A study of Mus musculus with 4 samples.

Results

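The genes described here encode the proteins of the cytosolic ribosome, measured by RNA sequencing in sorted mouse spermatogonia with and without deletion of *Cnot3*, a subunit gene of the CCR4-NOT deadenylase complex. Genes were chosen by symbol alone, as those named *Rpl* or *Rps* with a number and an optional closing letter or digit, together with *Rplp0*, *Rplp1*, *Rplp2* and *Rpsa*. The rule took 89 of the 54920 genes in the count files, and 88 of them were among the 23952 genes with enough reads to be tested. The remaining gene, *Rps12l1*, was at or under 3 reads in every library. Of the 89 genes, 83 are annotated as protein coding and 6 as processed pseudogenes (*Rps3a2*, *Rps3a3*, *Rpl6l*, *Rpl32l*, *Rps12l1* and *Rps4l*), so the symbols do not name ribosomal protein genes without exception. The rule also passes over genes such as *Fau*, *Rpl36al*, *Rps27rt* and *Rack1*, which encode ribosomal proteins but were not matched by it.

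All 4 libraries came from testes at postnatal day 8, from cells sorted for ID4-EGFP, a reporter of undifferentiated spermatogonia and spermatogonial stem cells. The 2 control libraries carried *Cnot3* flox/flox and *Id4-eGfp*, and are labelled wild-type. The 2 Cnot3-cKO libraries carried in addition *Ddx4*-creER, a tamoxifen-inducible Cre driven in germ cells by the *Ddx4* promoter, so that *Cnot3* is deleted in germ cells and not in the other cells of the testis. Both groups received 4OHT injections from postnatal day 1 to 3. Whether the libraries of a group came from separate animals or from pools is not given in the labels, and the p-values measure the spread between these libraries.

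Ribosomes are built from a large and a small subunit, each made of ribosomal RNA and a single copy of most of its proteins. Mammalian ribosomal protein mRNAs are abundant, short and long-lived, and begin with a C followed by a tract of pyrimidines (the 5′ TOP element) through which LARP1 and the mTORC1 kinase set how much of them is translated. Several ribosomal protein genes have paralogs used in particular tissues, of which *Rpl39l* and *Rpl10l* are best known in male germ cells, and most have many processed pseudogenes that resemble the mRNA closely.

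That resemblance limits how reads can be assigned, and a few coding stretches show it. Each is given 5′ to 3′ from GENCODE M21 transcripts (GRCm38), and capitals mark the bases at which the 2 genes of a pair differ. *Rpl39* (chrX:37082520-37085402, minus strand) and *Rpl39l* (chr16:10170226-10174911, plus strand) are identical at 85.3% of 156 coding bases. *Rpl10* (chrX:74270812-74273135, plus strand) and *Rpl10l* (chr12:66283379-66284401, minus strand) are identical at 84.8% of 645 coding bases. *Rps16* (chr7:28350652-28353155, plus strand) and the pseudogene *Rps16-ps2* are identical at all 441 coding bases, so the first 30 coding bases hold no capital.
Rpl39: atgTcttctcacaagacTttcCgAatcaag
Rpl39l: atgGcttctcacaagacCttcAgGatcaag
Rpl10: atgggCcgCcgCccCgcCcgGtgttaccgg
Rpl10l: atgggTcgTcgTccGgcTcgCtgttaccgg
Rps16: atgccgtccaagggtccgctgcagtccgtg
Rps16-ps2: atgccgtccaagggtccgctgcagtccgtg

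Counted reads totalled 40957899 and 43378493 in the control libraries, against 22192964 and 28019626 in the Cnot3-cKO libraries. *Cnot3* itself stood at 58.6 and 50.2 CPM (read counts scaled to a common library size) in controls and at 19.2 and 19.9 in Cnot3-cKO, a log2 fold change of -1.48 ± 0.13 (SE; adjusted p = 1.48e-05, edgeR quasi-likelihood test with Benjamini-Hochberg adjustment over all tested genes, used throughout for adjusted p). CPM were scaled by TMM, and log2 fold changes are Cnot3-cKO over control. Markers of several other testis cells moved with genotype: 14 of 14 Sertoli cell markers rose, with a summed level of 275 to 288 CPM in controls and 929 to 964 in Cnot3-cKO. So did 5 of 6 tested Leydig cell markers (323 to 368 against 831 to 897 CPM) and 8 of 9 macrophage markers (177 to 269 against 484 to 593 CPM). Fewer passed elsewhere: 1 of 5 peritubular myoid, 2 of 5 endothelial and 2 of 5 erythroid cell markers rose, and 0 fell. Of 12 germ cell markers, 1 rose and 5 fell (7742 to 8233 against 6537 to 6947 CPM), and of 8 markers of undifferentiated spermatogonia 3 rose and 2 fell (1170.0 to 1305 against 1008 to 1012 CPM). The part of these markers in the results on ribosomal protein genes was not tested, and in bulk RNA fewer cells of a type and less RNA per cell cannot be told apart.

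Ribosomal protein genes as a whole took a similar share of the reads in both groups. Of all counted reads they held 1.41% and 1.67% in the control libraries, against 1.47% and 1.44% in the Cnot3-cKO libraries. Both Cnot3-cKO libraries lay between the controls, so the groups overlapped, and the difference of means was -0.0899 percentage points (exact permutation test, two-sided p = 1). With 2 libraries a group the smallest p this test can give is 0.3333.

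The balance between the subunits lay apart in the groups. Large subunit genes held 1.107 and 1.093 times the reads of small subunit genes in controls, and 1.182 and 1.240 times in Cnot3-cKO. Both Cnot3-cKO libraries were above both controls (exact permutation test, two-sided p = 0.3333, the smallest possible). Without *Rpl4*, the gene with the most reads, the ratios were 0.897 and 0.908 in controls and 0.952 and 1.001 in Cnot3-cKO, and again did not overlap. They did not overlap either with the protein-coding genes alone (1.161 and 1.148 against 1.234 and 1.316) or with the reads of pseudogenes named after these genes added (1.102 and 1.101 against 1.200 and 1.220).

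**Figure D1:**
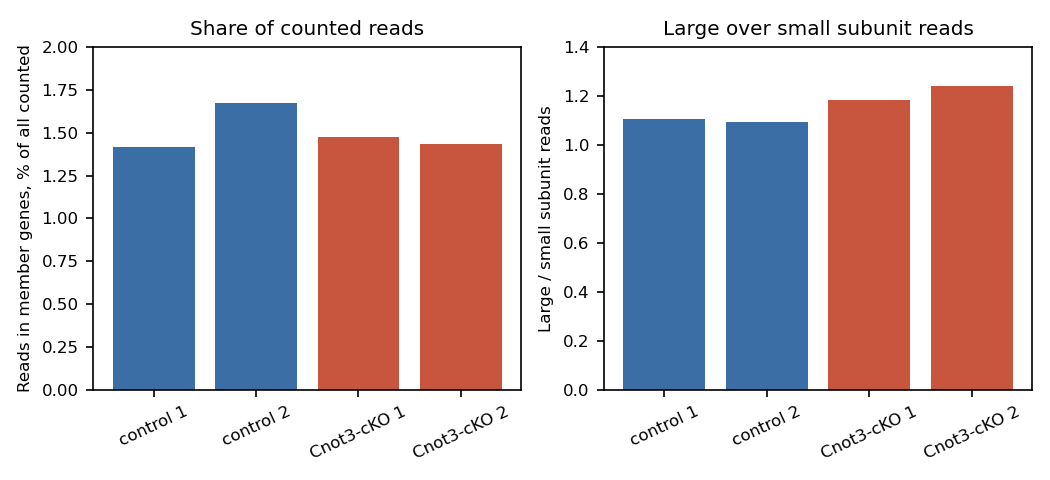
Bars give, for each of the 4 libraries, the reads in ribosomal protein genes as a percent of all counted reads (left) and the reads in large subunit genes divided by those in small subunit genes (right), with control in blue and Cnot3-cKO in red. The share ran from 1.41% to 1.67% with overlapping groups, and the ratio was above 1.18 in both Cnot3-cKO libraries and at most 1.107 in controls.

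Levels of single genes spanned a wide range and largely kept their order between genotypes. Per kilobase of exon, the protein-coding genes ran from 1.45 CPM in controls for *Rpl3l*, a paralog known from striated muscle, to 738 CPM for *Rpl4*, with a median of 58.8 CPM. *Rplp0* followed *Rpl4* at 505 CPM per kilobase, and *Rpl24* (4.52) and *Rps10* (5.88) stood just above *Rpl3l*. *Rps10* held 11.1% of the reads of itself and its named pseudogenes. In *Rpl24*, 48.2% of the stretches of 50 bases in all its annotated transcripts were found in no other annotated gene. The part of read assignment and of annotated exon length in these levels was not tested. Across the 83 protein-coding genes, log2 CPM in controls and in Cnot3-cKO correlated with Pearson's r = 0.990 (a description over genes that share libraries). *Rpl4* was at 1436 and 1528 CPM in controls and at 1521 and 1498 in Cnot3-cKO, with overlapping groups and a log2 fold change of 0.03 ± 0.07 (SE; adjusted p = 0.846).

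Gene by gene, small decreases outnumbered increases. At an adjusted p under 0.05, 17 of the 88 tested genes fell and 3 rose, where 9.46% of all tested genes fell and 11.1% rose. The log2 fold change was negative for 63 genes and positive for 25, with a median of -0.15 beside 0.01 over all tested genes. Both Cnot3-cKO libraries lay below both controls for 35 genes and above them for 5, where 28.6% and 30.5% of all tested genes did so. By the stricter call of an adjusted p under 0.01 with a fold change above 2, 1 gene fell and 0 rose, where 0.735% and 4.03% of all tested genes did. At an unadjusted p under 0.05 by edgeR 0 genes were higher by more than 2-fold (8.44% of all tested genes), and 0 passed the stricter call in that direction by DESeq2 (4.72%). The 68 genes that did not pass had log2 fold changes between -0.44 and 0.42.

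These counts leaned on single libraries. The controls differed from each other, control 2 being above control 1 by a median log2 ratio of 0.22 over the protein-coding genes, beside -0.01 over all tested genes. A fit without 1 library leaves its group with a lone library, which is assumed to vary like the other group. Without control 1, 44 genes fell, 2 rose and the median was -0.25, where 12.5% of all tested genes fell and 11.2% rose. Without control 2, 13 fell, 9 rose and the median was -0.03, where 9.91% of all tested genes fell and 10.1% rose. With libraries scaled to the germ cell markers instead, 2 genes fell (2.56% of all tested genes), 10 rose (19.8%) and the median was 0.09, beside a median of 0.25 over all tested genes on that scaling.

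**Figure D2:**
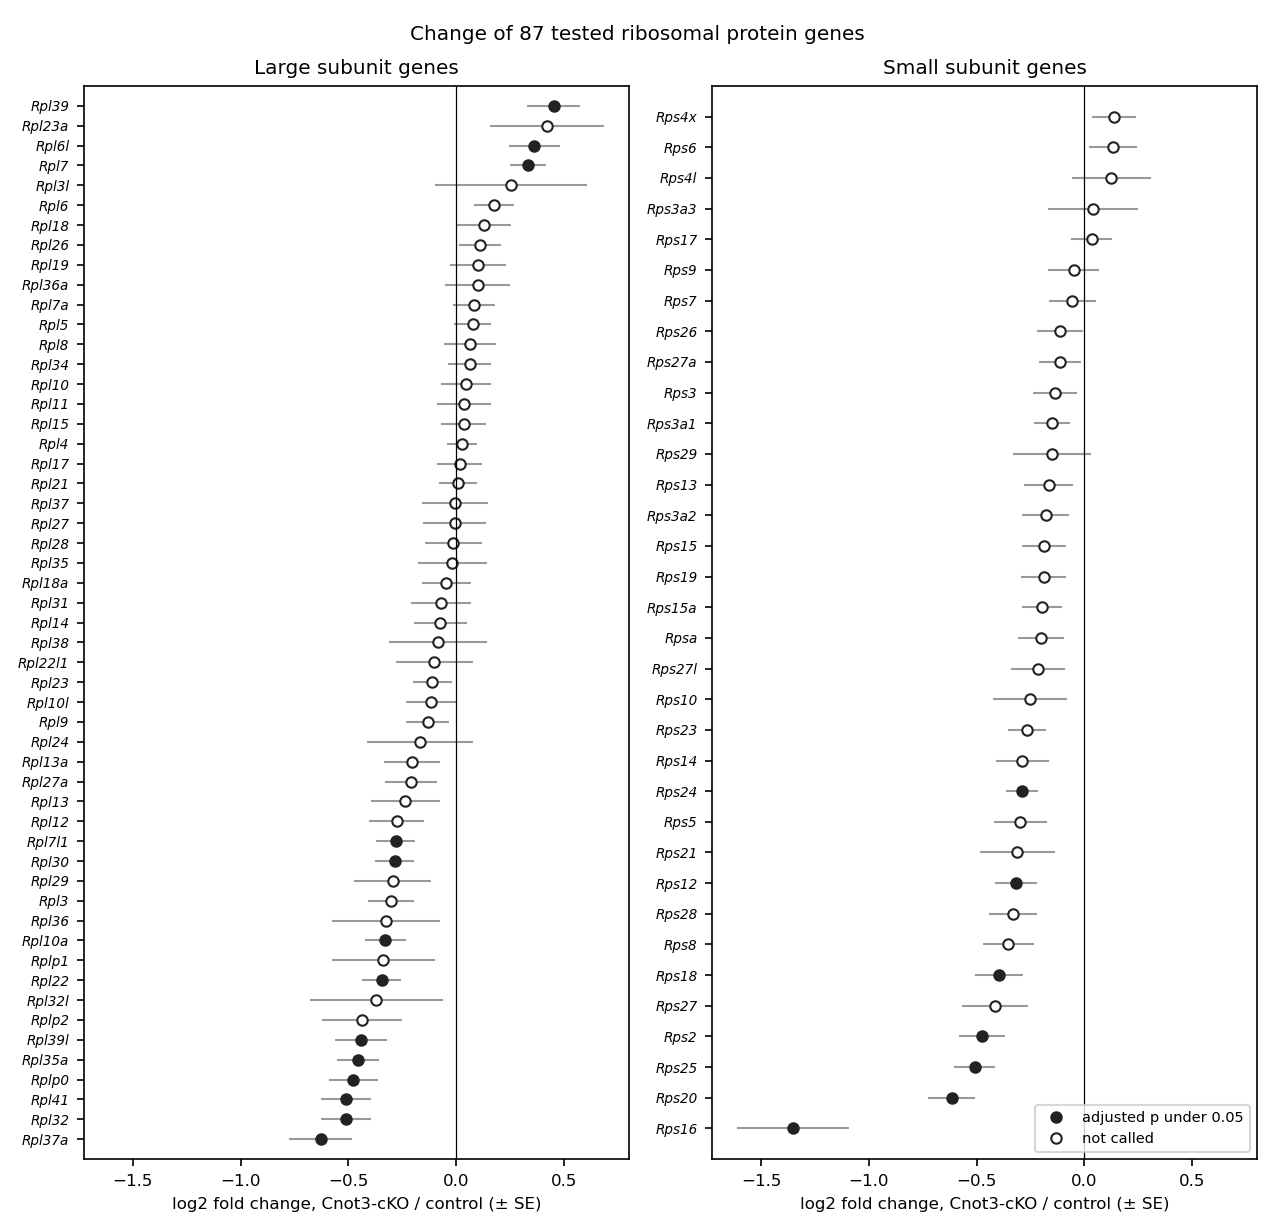
Each point is the log2 fold change of one of 87 tested genes, Cnot3-cKO over control, with its SE as a bar, ordered by size within the large (left) and small (right) subunit. Filled points passed an adjusted p under 0.05: 3 rose and 10 fell among 53 large subunit genes, and 7 fell among the small subunit genes, of which 34 are drawn. Of all tested genes, 11.1% rose and 9.46% fell.

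In the small subunit, 7 of 35 tested genes fell and 0 rose by edgeR, where 9.46% and 11.1% of all tested genes did. The median log2 fold change was -0.20. At an unadjusted p under 0.05, 13 were lower and 0 higher, where 15.4% and 17.4% of all tested genes were. By DESeq2 10 fell and 0 rose, where 12.5% and 11.2% of the genes with an adjusted p did. *Rps16*, which encodes a protein of the head of the small subunit, had the lowest log2 fold change of the 88 genes. It was at 24.3 and 13.0 CPM in controls and at 6.66 and 7.89 in Cnot3-cKO. Both Cnot3-cKO libraries were below both controls, and control 1 was well above control 2. The log2 fold change was -1.35 ± 0.26 (SE; adjusted p = 0.00322), and without control 1 it was -0.85. *Rps20* was at 177 and 220 CPM in controls and at 122 and 137 in Cnot3-cKO, without overlap, a log2 fold change of -0.62 ± 0.11 (SE; adjusted p = 0.002). *Rps25*, whose protein is used in initiation at viral internal entry sites, was at 164 and 191 CPM in controls and at 120 and 129 in Cnot3-cKO, a log2 fold change of -0.51 ± 0.10 (SE; adjusted p = 0.00297). The others that fell were *Rps2*, *Rps18*, *Rps12* and *Rps24*, of which *Rps18* did not pass without Cnot3-cKO 2, and *Rps12* and *Rps24* did not pass when either Cnot3-cKO library was left out. *Rps6*, the substrate of S6 kinase, was at 124 and 146 CPM in controls and 164 and 133 in Cnot3-cKO, with overlapping groups (adjusted p = 0.468). *Rpsa*, the laminin receptor protein, was at 492 and 639 CPM in controls and 504 and 482 in Cnot3-cKO and also overlapped (adjusted p = 0.224). *Rps6* held 26.8% of the reads of itself and its named pseudogenes. Of these, *Rps6-ps4*, identical at all 750 coding bases, was at 321 and 352 CPM in controls and 432 and 434 in Cnot3-cKO. With the pseudogene reads added, *Rps6* had a log2 fold change of 0.29 ± 0.08 (SE, adjusted p = 0.0261).

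In the large subunit, 10 of 53 tested genes fell and 3 rose, where 9.46% and 11.1% of all tested genes did. The median log2 fold change was -0.07. *Rpl37a* was at 98.1 and 130 CPM in controls and at 84.5 and 63.4 in Cnot3-cKO, a log2 fold change of -0.63 ± 0.15 (SE; adjusted p = 0.00976). *Rpl41*, which encodes a very short basic peptide, was at 200 and 264 CPM in controls and at 170 and 155 in Cnot3-cKO, a log2 fold change of -0.51 ± 0.12 (SE; adjusted p = 0.00828). *Rpl32* was at 338 and 379 CPM in controls and at 287 and 217 in Cnot3-cKO, a log2 fold change of -0.51 ± 0.12 (SE; adjusted p = 0.00822), which was -0.33 (adjusted p = 0.106) without Cnot3-cKO 2. In these 3 genes both Cnot3-cKO libraries were below both controls. The others that fell were *Rplp0*, *Rpl35a*, *Rpl39l*, *Rpl22*, *Rpl10a*, *Rpl30* and *Rpl7l1*, and the last 4 did not pass when either Cnot3-cKO library was left out.

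The stalk, the flexible arm that recruits translation factors, is built on *Rplp0* with *Rplp1* and *Rplp2*. *Rplp0* was at 717 and 960 CPM in controls and at 584 and 621 in Cnot3-cKO, below both controls, with a log2 fold change of -0.48 ± 0.11 (SE; adjusted p = 0.01). *Rplp1* was at 61.1 and 128 CPM in controls and 69.1 and 80.4 in Cnot3-cKO, and *Rplp2* at 45.0 and 71.6 against 38.2 and 47.9. In both, control 2 was far above the other 3 libraries and the groups overlapped (adjusted p = 0.365 and 0.117). *Rpl5* and *Rpl11*, which carry 5S RNA into the ribosome and bind MDM2 when assembly fails, had log2 fold changes of 0.08 ± 0.09 and 0.04 ± 0.13 (SE; adjusted p = 0.594 and 0.889).

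The 3 genes that rose were *Rpl39*, *Rpl7* and the annotated pseudogene *Rpl6l*, and with a GC and length correction 0 of the 88 genes rose, where 9.16% of all tested genes did (adjusted p = 0.0821, 0.466 and 0.0935 for these 3, in that order). *Rpl39*, whose protein lines the exit tunnel, was at 26.9 and 26.5 CPM in controls and at 37.2 and 36.1 in Cnot3-cKO. The Cnot3-cKO libraries lay above both controls, with a log2 fold change of 0.45 ± 0.12 (SE; adjusted p = 0.0204), and without Cnot3-cKO 1 or 2 the adjusted p was 0.148 or 0.0894. *Rpl7* was at 465 and 517 CPM in controls and at 646 and 593 in Cnot3-cKO, again without overlap, with a log2 fold change of 0.33 ± 0.08 (SE; adjusted p = 0.0132, and 0.209 without Cnot3-cKO 1). *Rpl6l* was at 48.8 and 58.2 CPM in controls and at 64.2 and 73.3 in Cnot3-cKO, a log2 fold change of 0.36 ± 0.12 (SE; adjusted p = 0.0484), and it passed in none of the fits without control 1, Cnot3-cKO 1 or Cnot3-cKO 2 (adjusted p = 0.169, 0.0529 and 0.338). The protein-coding *Rpl6*, of which *Rpl6l* is a copy with 98.7% of 871 aligned bases identical, had a log2 fold change of 0.17 ± 0.09 (SE; adjusted p = 0.211). *Rpl23a* had a log2 fold change of 0.42 ± 0.26 (SE; adjusted p = 0.303) at 4.42 to 8.45 CPM. The 4 X-linked genes (*Rpl39*, *Rpl10*, *Rps4x* and *Rpl36a*) all had positive log2 fold changes, with a median of 0.12. Of these, 1 rose by the test, where 11.1% of all tested genes did.

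**Figure D3:**
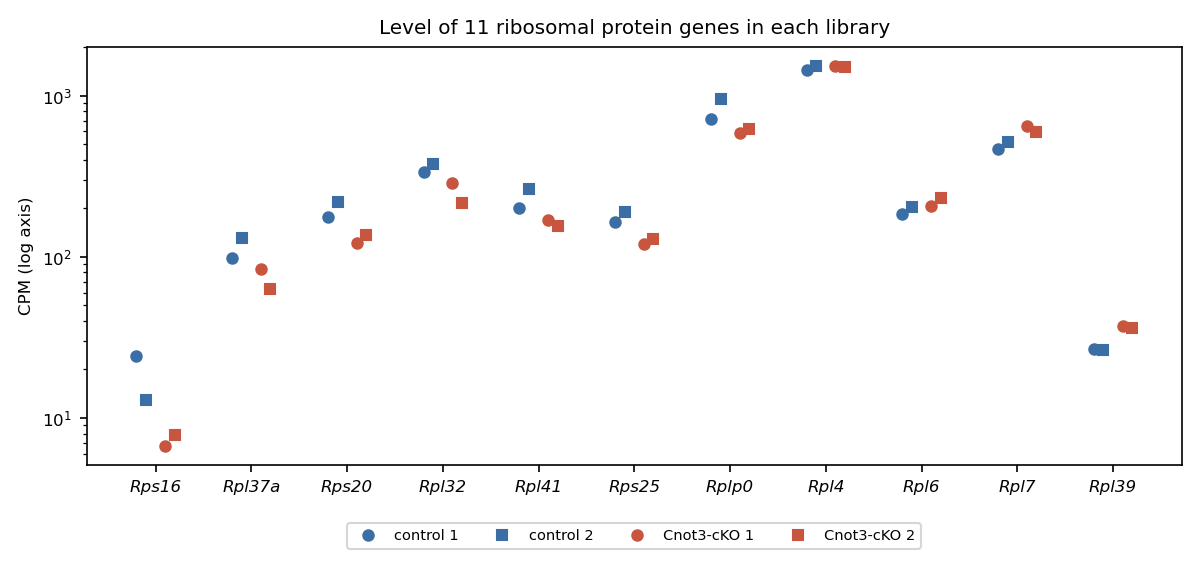
Points give CPM on a log axis in each of the 4 libraries for 11 genes, control in blue and Cnot3-cKO in red, with circles for replicate 1 and squares for replicate 2. *Rps16* to *Rplp0* lay lower in both Cnot3-cKO libraries, *Rpl7* and *Rpl39* lay higher in both, and *Rpl4* overlapped.

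Paralogs were compared with their parent genes as a share of the reads of the pair, which does not depend on library scaling. *Rpl39l* held 70.3% and 74.99% of its pair with *Rpl39* in the controls, and in Cnot3-cKO it held 58.2% and 59.9%. The groups did not overlap, and the mean share went from 72.7% ± 3.29 (SD, n = 2) to 59.0% ± 1.23 (SD, n = 2; exact permutation test, two-sided p = 0.3333, the smallest possible). *Rpl39l* itself fell, from 63.9 and 79.6 CPM to 51.7 and 53.9, with a log2 fold change of -0.44 ± 0.12 (SE; adjusted p = 0.0203, but 0.0814 without control 2 and 0.0744 without Cnot3-cKO 1), while *Rpl39* rose as given above. *Rpl7l1*, a diverged relative of *Rpl7*, held 23.9% and 23.5% of its pair in controls and 16.8% and 16.9% in Cnot3-cKO. *Rps27l*, a paralog known as a p53 target, held 72.4% and 74.6% of its pair in controls and 76.1% and 76.4% in Cnot3-cKO. The shares of *Rpl7l1* and *Rps27l* did not overlap between groups either. The *Rps27* pair leaves out *Rps27rt*, which shares 91.1% of its stretches of 50 bases with *Rps27*. *Rps27rt* was at 168 and 185 CPM in controls and 163 and 137 in Cnot3-cKO. *Rps27* was at 19.4 and 22.0 CPM in controls and 15.4 and 15.7 in Cnot3-cKO. The share with *Rps27rt* reads added was not computed. *Rpl10l*, a retrogene of the X-linked *Rpl10* needed in meiosis, held 40.5% and 42.7% in controls and 41.5% and 36.8% in Cnot3-cKO, with overlapping groups. The shares of *Rpl22l1*, *Rpl3l*, *Rps4l*, *Rps3a2* and *Rpl32l* overlapped as well, and *Rpl6l* (20.9% and 22.2% against 23.7% and 23.95%) did not. For *Rpl7l1*, *Rps27l* and *Rpl6l* the exact permutation test also gave p = 0.3333, the value for any pair without overlap. By CPM, both Cnot3-cKO libraries lay below both controls in 28.6% of all tested genes and above them in 30.5%.

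Among the parents and paralogs, *Rpl22*, an RNA-binding protein known to repress its paralog *Rpl22l1*, was at 162 and 186 CPM in controls and at 139 and 136 in Cnot3-cKO. Its groups did not overlap, with a log2 fold change of -0.35 ± 0.09 (SE; adjusted p = 0.0187, but 0.0758 and 0.115 without Cnot3-cKO 1 or 2). *Rpl7l1* went from 147 and 159 to 131 and 121 CPM, a log2 fold change of -0.28 ± 0.09 (SE; adjusted p = 0.0446, and over 0.05 without control 2 or either Cnot3-cKO library). Of the remaining pair genes without values above, *Rpl3*, which helps form the peptidyl transferase centre, had a log2 fold change of -0.30 ± 0.11 (SE; adjusted p = 0.0652) and *Rps27* of -0.42 ± 0.15 (SE; adjusted p = 0.0763), and neither passed. *Rpl10*, *Rpl10l*, *Rpl22l1*, *Rpl3l*, *Rps4x*, *Rps4l*, *Rps27l*, *Rps3a1*, *Rps3a2* and *Rps3a3* did not pass either and lay between -0.22 and 0.26. *Rpl3* held 37.9% of the reads of itself and its named pseudogenes. With the pseudogene reads added, its log2 fold change was -0.34 ± 0.08 (SE, adjusted p = 0.012).

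**Figure D4:**
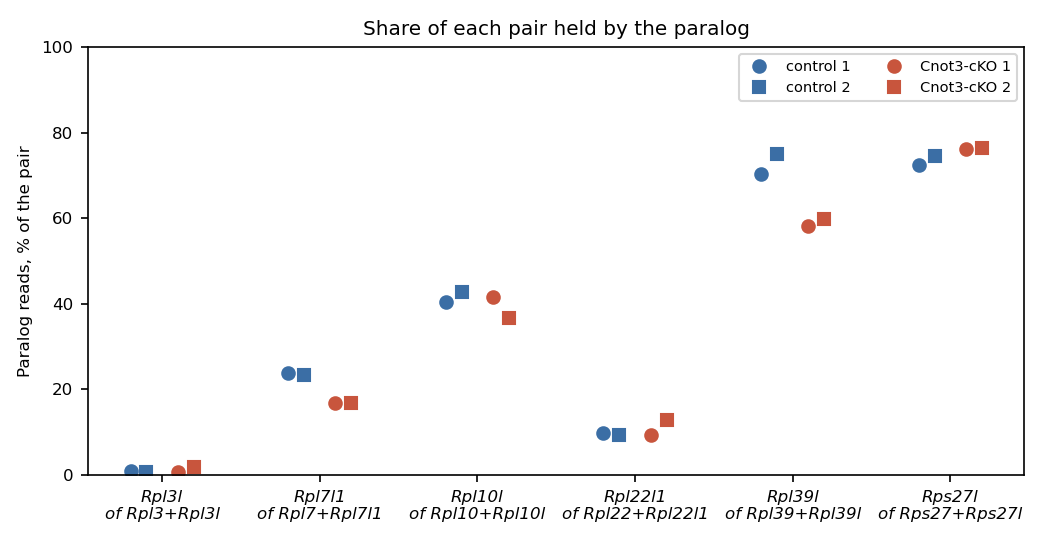
Points give the reads of each paralog as a percent of the reads of its pair in each of the 4 libraries, control in blue and Cnot3-cKO in red. For *Rpl39l* and *Rpl7l1* both Cnot3-cKO libraries lay below both controls, and for *Rpl10l* the groups overlapped.

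Pseudogenes limited how far a change could be placed on one gene. Of the 89 genes, 63 have named pseudogenes in the count files, 310 in all, and 19 genes held fewer reads than their own named pseudogenes. *Rps16* held 8.72% of the reads of its family. *Rps16-ps2* (chr5:129128077-129128517, minus strand, GRCm38) was at 267 and 143 CPM in controls and at 70.5 and 53.0 in Cnot3-cKO. As for *Rps16*, both Cnot3-cKO libraries were below both controls and control 1 was above control 2, with a log2 fold change of -1.73 ± 0.22 (SE; adjusted p = 0.000236). Reads from the coding part of *Rps16* and from this copy cannot be told apart. Over all annotated transcripts of *Rps16*, 65.1% of the 50-base stretches were found in no other gene and 31.0% were shared with *Rps16-ps2*. Those transcripts cover 1266 exonic bases, of which the coding part takes 441. The 65.1% therefore describes sequence outside the coding part and does not give the share of the mature mRNA that can be told apart. Over 53 pseudogenes at 10 CPM or more in controls, a limit chosen after the values were seen, 46 had the sign of the gene they copy, with Pearson's r = 0.767 and Spearman's rho = 0.616. Over all 150 tested pseudogenes the values were 106, 0.394 and 0.350. These are descriptions of points that share reads and libraries.

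**Figure D5:**
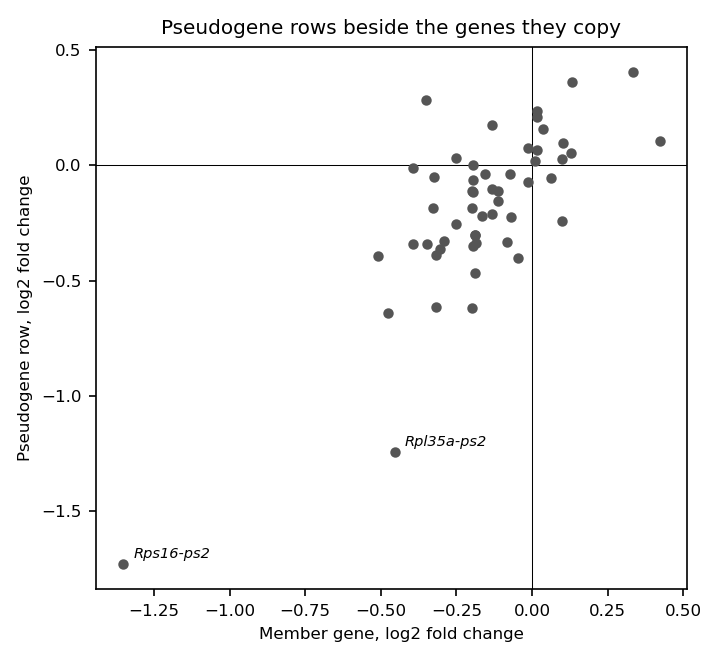
Each point is one of 53 pseudogenes at 10 CPM or more in controls, with the log2 fold change of the gene it copies on the x axis and its own on the y axis. Most points lie in the lower left or upper right, and *Rps16-ps2* is at the lower left end at -1.73.

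The share of a gene's annotated sequence found nowhere else had a weak relation to its change. This share was taken over all annotated transcripts of a gene, coding or not, such as 6610 stretches of 50 bases for *Rps24*. It is therefore not the share for the mature mRNA alone. Its relation to how well reads of the mature mRNA can be assigned was not tested. Counting stretches of 50 bases found in no other annotated gene, the 47 protein-coding genes with at least 75% of such stretches had 2 genes that rose, 10 that fell and a median of -0.19. The 36 genes under 75% had 0, 7 and -0.13, where 11.1% of all tested genes rose and 9.46% fell. The correlation of the log2 fold change with this share (r = -0.10), with GC content (r = -0.01) and with exonic length (r = -0.01) was weak over 83 genes. GC content was more closely related to the difference between the controls, with r = 0.388 and rho = 0.465 against the log2 ratio of control 2 to control 1.

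Ribosomal protein genes shared features that the symbol rule did not use. Introns of 16 of the 83 protein-coding genes hold snoRNA genes that overlap no annotated exon, which is 19.3% beside 1.37% of 15794 tested protein-coding genes. A snoRNA gene inside a stretch that any transcript of the gene annotates as exon was not counted, so hosts can be missed. *Rpl32*, for example, was not counted but shares 9.97% of its stretches of 50 bases with *Snora7a*. Of the 16, 1 rose and 1 fell, where 11.1% and 9.46% of all tested genes did. RefSeq promoters (GRCm38.p6) were found for 64 of the 89 genes. A gene was counted when any of its promoters held the sequence searched for. A C followed by 7 pyrimidines was sought from 20 bases before to 30 bases after the annotated start, on the sense strand. Such a run lay in 53.1% of these 64 and in 17.4% of 17492 protein-coding genes with a promoter. It was found in 6 of the 14 genes that fell and have a promoter, and in 27 of the 49 that did not pass the test. In 300-base windows, both strands, CTCTTTC was found in 28.1% against 8.92%, CCGGAAG in 40.6% against 13.0%, and TATAAA in 12.5% against 14.8%. Windows from 20 bases before to 10 after the start are shown for 3 genes to display such a tract, with CTCTTTC in capitals: *Rpl35a*, which fell (chr16:33056462-33056491, plus strand), and *Rpl28* (chr7:4792945-4792974, plus strand) and *Rpl35* (chr2:39005122-39005151, minus strand), which did not pass the test.
Rpl35a: gcgcggcggggcttgccttcCTCTTTCcgc
Rpl28: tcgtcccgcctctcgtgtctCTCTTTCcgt
Rpl35: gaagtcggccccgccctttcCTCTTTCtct

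Genes that work with the ribosome were read beside the 11.1% of all tested genes that rose and the 9.46% that fell. Of 40 translation factors, 4 rose and 11 fell (median log2 fold change -0.07), among them the release factor *Etf1* (0.40 ± 0.08 SE, adjusted p = 0.00329), *Eif3e* (0.36 ± 0.08 SE, adjusted p = 0.00829), the elongation factor *Eef1a1* (-0.37 ± 0.07 SE, adjusted p = 0.0036) and *Eif5a* (-0.49 ± 0.10 SE, adjusted p = 0.00377). Of 104 ribosome biogenesis genes, 8 rose and 16 fell (median -0.05), led by *Rpf1* (0.68 ± 0.10 SE) and *Gnl3* (0.41 ± 0.08 SE) among those that rose and *Nop16* (-0.66 ± 0.10 SE) and the AAA ATPase *Mdn1* (-0.55 ± 0.09 SE) among those that fell. A list on the control of TOP mRNAs held 25 genes, with mTORC1 and LARP genes but also transcription factors such as *Myc*, *Mxd4* and *Yy1*. Of the 25, 0 rose and 8 fell by edgeR (median -0.20), 0 and 12 at an unadjusted p under 0.05, and 0 and 10 by DESeq2. Those that fell included *Rptor* (-0.50 ± 0.10 SE, adjusted p = 0.00359) and *Eif4ebp2* (-0.63 ± 0.13 SE, adjusted p = 0.00431). Of the 5 ribosomal proteins outside the symbol rule, 0 passed by edgeR (median -0.05), 1 was lower at an unadjusted p under 0.05, and 0 passed by DESeq2. Of 80 tested genes with a mitochondrial ribosomal protein symbol, 4 rose and 5 fell (median -0.13), including *Mrpl1* (0.43 ± 0.10 SE, adjusted p = 0.0119) and *Mrpl12* (-1.17 ± 0.22 SE, adjusted p = 0.00245). The 80 include pseudogenes such as *Mrpl48-ps*.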

How the data were processed

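Total RNA from ID4-EGFP+ spermatogonia was made into stranded libraries by the authors, who used STAR for alignment of quality-filtered reads (build mm10) and featureCounts with the GENCODE M24 annotation for counting, and deposited one table of raw counts per library. How multi-mapping reads and strand were handled in counting is not given in the sources used here. The deposited counts of all 4 libraries were used as they stand. Genes were kept with edgeR's filter on low counts, scaled by TMM and compared by edgeR's quasi-likelihood test (edgeR 4.0.16, R 4.3.3) with Benjamini-Hochberg adjustment over all 23952 tested genes, without covariates. The SE of a log2 fold change is its size divided by the square root of its F statistic. DESeq2 1.42.0, other scalings and filters, a replicate block, a GC and length correction and leaving out each library were alternatives. The fit was tested on simulated data. Library totals were 22192964 to 43378493 reads, and low-count genes are the least precise.

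Symbols were matched to GENCODE M21 (52919 of 54920, and 89 of 89 ribosomal protein genes) for coordinates and exonic length. Ribosomal protein genes and lists were chosen with earlier results of these data known. Named with values were the paralog pairs, the stalk and 5S genes, *Rps6*, *Rpsa*, members past the stricter call, the 6 largest and 6 smallest log2 fold changes, the 3 highest and 3 lowest levels per kilobase and, from each other list, the called genes with the smallest p in each direction. *Rps16-ps2*, *Rps6-ps4*, *Rpl35a*, *Rpl28* and *Rpl35* were named after their values were seen. Some items are not reported here.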

Additional observations from a re-analysis of the deposited data

How the results depend on the processing

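The median log2 fold change of the ribosomal protein genes stayed negative under every alternative run except scaling to the germ cell markers, where it was 0.093 with 10 genes higher and 2 lower. Without a filter on low counts 28 genes fell (7.32% of all genes), and with the GC and length correction 29 fell (15.5%) and 0 rose (9.16%). The median of the ribosomal protein genes less that of all genes was -0.16 as reported, -0.16 with germ cell scaling, -0.21 without a filter and -0.17 with the correction. The cause was not tested. Leaving out 1 library at a time gave 0 to 9 genes higher, 13 to 44 lower, 0 to 1 past the stricter call, medians from -0.25 to -0.03, a difference in read share from -0.22 to 0.04 percentage points and *Cnot3* from -1.59 to -1.37. *Rps16* and *Rps20* passed an adjusted p under 0.05 in all 15 alternatives, and none of the 20 called genes changed sign, but *Rpl6l* kept its call in 7, *Rpl7l1* in 8, *Rpl10a* and *Rps12* in 9 and *Rpl30* in 10. Of the 20 calls, germ cell scaling lost 15 and leaving out either Cnot3-cKO library lost 10. The replicate numbers did not pair the samples (r = 0.0713 between the deviations of the libraries numbered 1, over 16437 genes), and a replicate block gave 3 genes higher (12.5% of all genes), 24 lower (11.2%) and a median of -0.16. The sign changed for 31 of the 88 genes with germ cell scaling, which raised the median of all genes from 0.01 to 0.25, for 14 with the GC and length correction and for 3 without a filter, none of them called. Those among the named genes were, with germ cell scaling (*Rpl10l* 0.13, *Rpl22l1* 0.14, *Rps27l* 0.032, *Rps3a1* 0.10, *Rps3a2* 0.065, *Rpsa* 0.052, *Rpl24* 0.070), with the correction (*Rpl10* -0.14, *Rps3a3* -0.014, *Rpl5* -0.14, *Rpl11* -0.10, *Rpl4* -0.14) and without a filter (*Rpl4* -0.0015). Leaving out 1 library at a time ran from -0.33 to 0.64 for *Rpl3l*, -0.13 to 0.19 for *Rpl10*, -0.28 to 0.043 for *Rpl10l*, -0.37 to 0.10 for *Rpl22l1*, -0.19 to 0.49 for *Rps4l*, -0.27 to 0.34 for *Rps3a3*, -0.79 to 0.28 for *Rplp1*, -0.081 to 0.13 for *Rpl11*, -0.036 to 0.27 for *Rps6* and -0.033 to 0.060 for *Rpl4*.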
